A study of Mus musculus with 6 samples.

Results

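The Celf genes encode a family of RNA-binding proteins, and all 6 mouse members, Celf1 to Celf6, were examined for NOVA1 and NOVA2 CLIP clusters in embryonic cortex. They were 6 of the 22380 protein-coding genes of the GENCODE vM1 annotation. A cluster belonged to a member when 1 nt or more of it fell inside the span of that gene on the strand of the gene. In this way 51 of 9988 NOVA1 clusters and 244 of 36591 NOVA2 clusters fell in the family. The family had been selected on measured values, namely the many NOVA2 clusters in Celf2 and their run in a 100 kb stretch there. The numbers, densities and spacing of NOVA2 clusters in Celf2 are therefore a description and not a finding. In genome build mm9 the spans were chr2:90780539-90859654 on the plus strand for Celf1, chr2:6460751-7002348 on the minus strand for Celf2 and chr3:94282753-94296115 on the plus strand for Celf3. Those of the others were chr18:25636133-25912484 on the minus strand for Celf4, chr10:80921972-80945454 on the minus strand for Celf5 and chr9:59425724-59455099 on the plus strand for Celf6.

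In HITS-CLIP, RNA is crosslinked to protein by ultraviolet light in intact tissue, trimmed with RNase, recovered with an antibody to the protein and sequenced. Cortex of wild-type CD1 mice at embryonic day 18.5 was used, with 3 libraries for NOVA1 and 3 for NOVA2. Both groups shared tissue, strain and age and differed in the antibody, so antibody, library depth and protein cannot be told apart. The lists used here gave 1 tag count per cluster, taken to be the height of its peak, pooled over the libraries of a protein and not scaled to depth, and they held only clusters with at least 10 tags. Library depth and the spread between libraries could therefore not be read from them. Each interval given is a Wilson 95% interval for a share, or an order-statistic interval of at least 95% for a median, and covers counting error only. Clusters of 1 gene share its RNA, and since RNA abundance was not used here, more binding and more of the transcript cannot be told apart.

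NOVA proteins are neuronal splicing regulators with KH domains that recognise YCAY, where Y is C or U. CELF proteins carry RNA recognition motifs, bind GU- and UGU-rich RNA, and act on alternative splicing in the nucleus and on mRNA decay and translation in the cytoplasm. CELF1 and CELF2 are found in many tissues and were studied for their antagonism to MBNL proteins in myotonic dystrophy, while CELF3 to CELF6 are mostly found in the nervous system. Clusters of NOVA tags in these genes thus mark places where 1 family of splicing regulators was bound to the transcripts of another.

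The 5 NOVA2 clusters with the most tags in the 100 kb stretch of Celf2 are shown first, because this run of clusters is the most prominent feature of the family. Sequences were read from the NCBIM37 genome (mm9), 5' to 3' on the strand of the gene, with T for U. Capitals mark each YCAY match (CCAC or CCAT, and with T in the first place TCAC or TCAT, own strand only, overlapping matches counted each). Where a cluster was longer than 150 nt, the 150 nt of it with the most matches are given.
Celf2, part of the cluster of 497 tags, chr2:6757327-6757476: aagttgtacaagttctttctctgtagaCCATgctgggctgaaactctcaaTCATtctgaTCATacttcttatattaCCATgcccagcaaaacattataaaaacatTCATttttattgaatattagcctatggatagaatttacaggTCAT
Celf2, part of the cluster of 303 tags, chr2:6749379-6749528: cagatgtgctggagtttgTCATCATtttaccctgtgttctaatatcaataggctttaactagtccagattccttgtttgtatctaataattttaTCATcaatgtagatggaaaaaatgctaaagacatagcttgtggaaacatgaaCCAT
Celf2, part of the cluster of 290 tags, chr2:6704642-6704791: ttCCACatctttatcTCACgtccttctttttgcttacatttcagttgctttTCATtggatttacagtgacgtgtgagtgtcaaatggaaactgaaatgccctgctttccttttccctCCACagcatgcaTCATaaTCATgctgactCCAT
Celf2, part of the cluster of 286 tags, chr2:6714335-6714484: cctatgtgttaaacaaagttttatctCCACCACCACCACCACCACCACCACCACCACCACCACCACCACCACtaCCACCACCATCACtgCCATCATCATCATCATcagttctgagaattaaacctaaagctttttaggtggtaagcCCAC
Celf2, part of the cluster of 277 tags, chr2:6757869-6758018: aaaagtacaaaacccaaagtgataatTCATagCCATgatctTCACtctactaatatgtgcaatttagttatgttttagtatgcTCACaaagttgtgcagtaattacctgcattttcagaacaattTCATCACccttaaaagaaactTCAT

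These 5 stretches held 4 to 25 YCAY matches, and their clusters differed widely in how dense the matches were. The cluster of 286 tags carried 26 matches in 199 nt, most of them in an uninterrupted CCA repeat, and its density of 133 per 1000 positions was the highest of the 5. The cluster of 303 tags held 8 matches in 490 nt, or 16.4 per 1000 positions. The order by tags and the order by motif density thus differed. The next sequences are the Celf2 cluster beside a coding exon, the Celf2 cluster with the most tags among those without NOVA1, and the intron clusters of Celf1 and Celf6 with the most tags.
Celf2, part of the cluster of 322 tags, chr2:6528710-6528859: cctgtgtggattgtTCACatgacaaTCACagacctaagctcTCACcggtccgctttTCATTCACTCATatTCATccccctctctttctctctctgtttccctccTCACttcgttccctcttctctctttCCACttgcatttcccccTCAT
Celf2, whole cluster of 142 tags, chr2:6970901-6971029: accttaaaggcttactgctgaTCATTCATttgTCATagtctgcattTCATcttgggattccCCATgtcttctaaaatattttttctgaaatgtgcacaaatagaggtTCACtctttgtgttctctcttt
Celf1, whole cluster of 68 tags, chr2:90831493-90831610: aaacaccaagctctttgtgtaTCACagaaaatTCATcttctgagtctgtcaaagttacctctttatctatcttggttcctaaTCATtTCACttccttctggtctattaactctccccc
Celf1, whole cluster of 33 tags, chr2:90800605-90800751: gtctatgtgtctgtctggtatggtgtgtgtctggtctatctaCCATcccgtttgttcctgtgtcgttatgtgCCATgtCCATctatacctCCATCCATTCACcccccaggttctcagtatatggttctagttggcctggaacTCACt
Celf6, whole cluster of 34 tags, chr9:59443690-59443799: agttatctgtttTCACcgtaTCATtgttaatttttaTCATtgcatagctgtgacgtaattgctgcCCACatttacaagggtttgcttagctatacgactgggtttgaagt
Celf6, whole cluster of 22 tags, chr9:59447732-59447834: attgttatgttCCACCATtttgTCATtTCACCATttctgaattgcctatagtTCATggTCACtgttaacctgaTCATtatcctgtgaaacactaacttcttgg

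For the 3' untranslated regions only a site of 30 nt with the most matches is shown, from the cluster with the most tags in each of Celf2 and Celf1.
Celf2, 3' UTR site in the cluster of 1468 tags, chr2:6467091-6467120: TCACcgttgaaccctagacctaaagtTCAT
Celf1, 3' UTR site in the cluster of 50 tags, chr2:90856564-90856593: gcatgtgcaaaagttcttgTCATttcCCAC

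Among the widely expressed members, Celf2 and Celf1, nearly all of the binding was in Celf2. Celf2 held 43 NOVA1 clusters with 1374 tags and 215 NOVA2 clusters with 13273 tags. Celf1 held 1 NOVA1 cluster of 17 tags and 7 NOVA2 clusters with 221 tags. Celf2 made up 56.2% of the summed span of the 6 genes, and it held 84.3% (72.0 to 91.8) of the family's NOVA1 clusters and 88.1% (83.5 to 91.6) of its NOVA2 clusters.

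Among the neuronal members, Celf4 was the only one with clusters of both proteins, 7 of NOVA1 with 128 tags and 20 of NOVA2 with 799 tags. Celf6 held 2 NOVA2 clusters, of 34 and 22 tags, and no NOVA1 cluster. Celf3 and Celf5 held no cluster of either protein, which at the list minimum of 10 tags says only that no cluster reached it. A NOVA1 cluster was thus found in 3 of 6 members and a NOVA2 cluster in 4 of 6, beside 12.7% and 22.7% of all protein-coding genes. Span enters these shares. Of the 4366 protein-coding genes with a span within a factor of 1.5 of that of Celf3, 13.6% held a NOVA2 cluster, and for Celf5 this was 23.3% of 4587 genes. For genes like Celf6, Celf1, Celf4 and Celf2 in span it was 27.1%, 49.2%, 70.7% and 85.3%. The 299 genes like Celf2 in span had a median of 13 NOVA2 clusters and at most 156, and those like Celf4 a median of 3. No member had a cluster on the opposite strand or within 10 kb downstream.

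**Figure D1:**
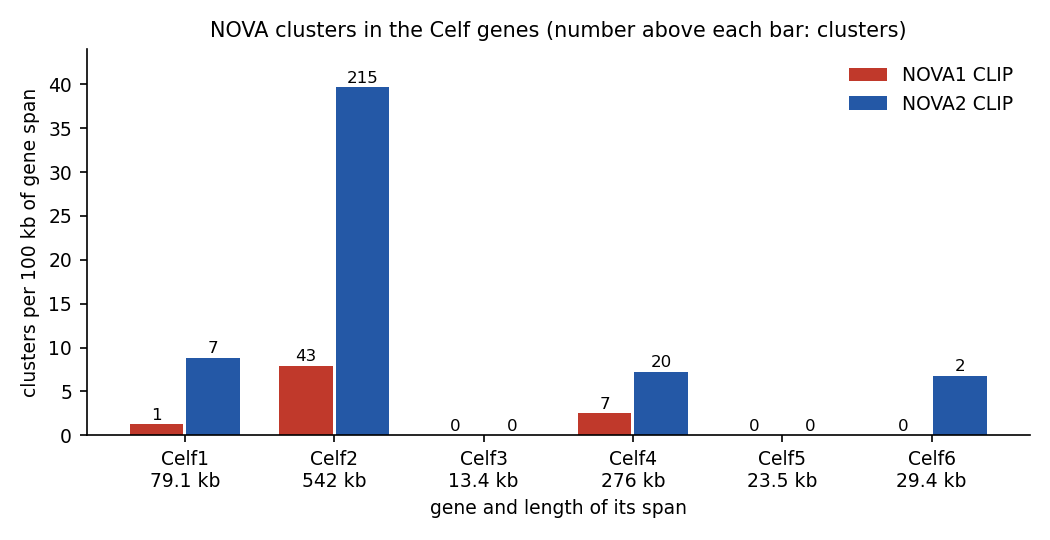
Clusters per 100 kb of gene span (vertical axis) in each of the 6 Celf genes, for the NOVA1 list (red) and the NOVA2 list (blue), with the number of clusters above each bar and the span under each name. Celf2 stands apart at 39.7 NOVA2 clusters per 100 kb, while Celf1, Celf4 and Celf6 lie between 6.81 and 8.85 and Celf3 and Celf5 are at 0.

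Per 100 kb of span, NOVA2 clusters numbered 39.7 in Celf2, 8.85 in Celf1, 7.24 in Celf4 and 6.81 in Celf6. Those of NOVA1 numbered 7.94 in Celf2, 2.53 in Celf4 and 1.26 in Celf1. Celf1, Celf4 and Celf6 were thus close to each other for NOVA2, and Celf2 exceeded each of them more than 4 times. Among the 1002 genes of at least 200 kb, Celf2 ranked 1 of 1002 for NOVA2 and 4 of 1002 for NOVA1. The median of these genes was 1.77 NOVA2 clusters per 100 kb and their 95th percentile 13.1. Celf4 ranked 178 for NOVA2 and 84 for NOVA1 in the same set.

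By number of clusters Celf2 ranked 7 of all genes in either list, between Odz2 (224 NOVA2 clusters) and Ctnna2 (197). Both of these span more than 1 Mb, and their densities were 18.2 and 17.9 per 100 kb. By summed NOVA2 tags Celf2 ranked 2, behind Ptprd with 22344, and by summed NOVA1 tags it ranked 13. The 3 genes most like Celf2 in the densities of both lists, by Euclidean distance of log2(clusters per 100 kb + 0.1) among the 1002 genes, were Lrfn5 (0.478), Chl1 (0.731) and Rbfox1 (0.749). Rbfox1 encodes a neuronal splicing regulator, and Lrfn5 and Chl1 encode adhesion proteins of the neuronal surface. Lrfn5 came next to Celf2 in NOVA2 density at 32.9 per 100 kb and was above it for NOVA1 at 10.5.

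A list of 24 other splicing and RNA-binding regulators gave a frame for the family, and 23 of them were found in the annotation by name. Of these 23 genes, 16 held a NOVA1 cluster and 20 a NOVA2 cluster, beside 12.7% and 22.7% of all protein-coding genes. Span enters here too, since the list holds long genes such as Rbfox1 with 603258 nt and Khdrbs2 with 484933 nt. Nova1 and Nova2 themselves are among the 23. Ptbp2, the neuronal polypyrimidine tract protein, had 46.4 NOVA2 clusters per 100 kb and Nova2 had 34.7, in spans of 64647 and 40334 nt. Celf2, with a span of 541598 nt, lay between them. Rbfox1 had 24.9, and Rbfox2 and Rbfox3 had 9.21 and 2.61. Mbnl1 and Mbnl2, whose products oppose those of Celf1 and Celf2 at many exons, held 4 and 2 NOVA2 clusters and no NOVA1 cluster. Ptbp1, Mbnl3 and Khdrbs1 held none of either.

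Within the family most clusters lay in introns. Of the 244 NOVA2 clusters 226 did, 92.6% (88.6 to 95.3), and of the 51 NOVA1 clusters 37 did, 72.5% (59.1 to 82.9). The whole lists had 74.6% and 40.3% in introns, 14.3% and 48.1% in exons, and the rest outside genes. Clusters of the family lie inside genes by definition, so its intron shares and those of the whole lists are not on a like basis. All 18 other NOVA2 clusters of the family lay in 3' UTRs, 12 in Celf2, 4 in Celf1 and 2 in Celf4. Of the 14 other NOVA1 clusters 13 lay in 3' UTRs, 10 in Celf2, 2 in Celf4 and 1 in Celf1, and 1 was in coding sequence of Celf2. Without Celf2 the intron share of NOVA2 clusters was 79.3% (61.6 to 90.2).

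Intron clusters of the family were far from exons. Only 3 of 226 NOVA2 intron clusters, 1.33% (0.452 to 3.83), and 2 of 37 NOVA1 intron clusters, 5.41% (1.5 to 17.7), lay within 500 nt of an annotated exon of their strand. In the whole lists these shares were 10.4% and 12.6%. The long introns of the family enter this comparison, since 3.71% of the intron nucleotides of Celf2 and 4.24% of those of Celf4 lay that near an exon, beside 15.8% for the introns of all genes. In Celf2 alone 2 of 203 NOVA2 intron clusters, 0.985% (0.271 to 3.52), were that near, a share whose interval ends below 3.71%.

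A single place in Celf2 had strong clusters beside a coding exon. The exon, chr2:6528928-6529007, has 80 nt and is used by 9 annotated transcripts. The NOVA2 cluster chr2:6528431-6528896 with 322 tags began 31 nt past the 3' end of this exon, in the downstream intron, and a further NOVA2 cluster of 141 tags began 620 nt past it. The first of them covers part of a longer form of the exon that 1 annotated transcript carries as its last exon. NOVA1 had clusters of 13, 22 and 17 tags at the same place. The first NOVA1 cluster overlapped the exon by 9 nt and was the one classed as coding sequence, through the longer form. The printed stretch of the 322-tag cluster held 10 YCAY matches, and the whole cluster 16.

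In Celf2 the annotated transcripts start at several far-apart places, near chr2:7002348, near chr2:6806042 and near chr2:6643262, and the clusters were spread unevenly over the introns between them. From the 5' end, the first intron of 119 kb held 15 NOVA2 clusters with 502 tags and no NOVA1 cluster, and the next, of 77.4 kb, held 24 NOVA2 and 4 NOVA1 clusters. The intron of 150 kb at chr2:6643263-6793401 held 97 NOVA2 clusters with 5529 tags and 19 NOVA1 clusters with 425 tags. At its 3' end lies an exon region, chr2:6642659-6643262, in which 7 annotated transcripts start at different places, so the intron lies before those transcripts and inside the longer ones. The introns of 57.2 kb and 39 kb after it held 13 and 19 NOVA2 clusters. Among these 5 longest introns NOVA2 density thus ran from 12.6 clusters per 100 kb in the first to 64.6 in the 150 kb intron. A short intron of 25.2 kb further 3' had 71.5 per 100 kb from 18 clusters, none above 53 tags, and no NOVA1 cluster.

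**Figure D2:**
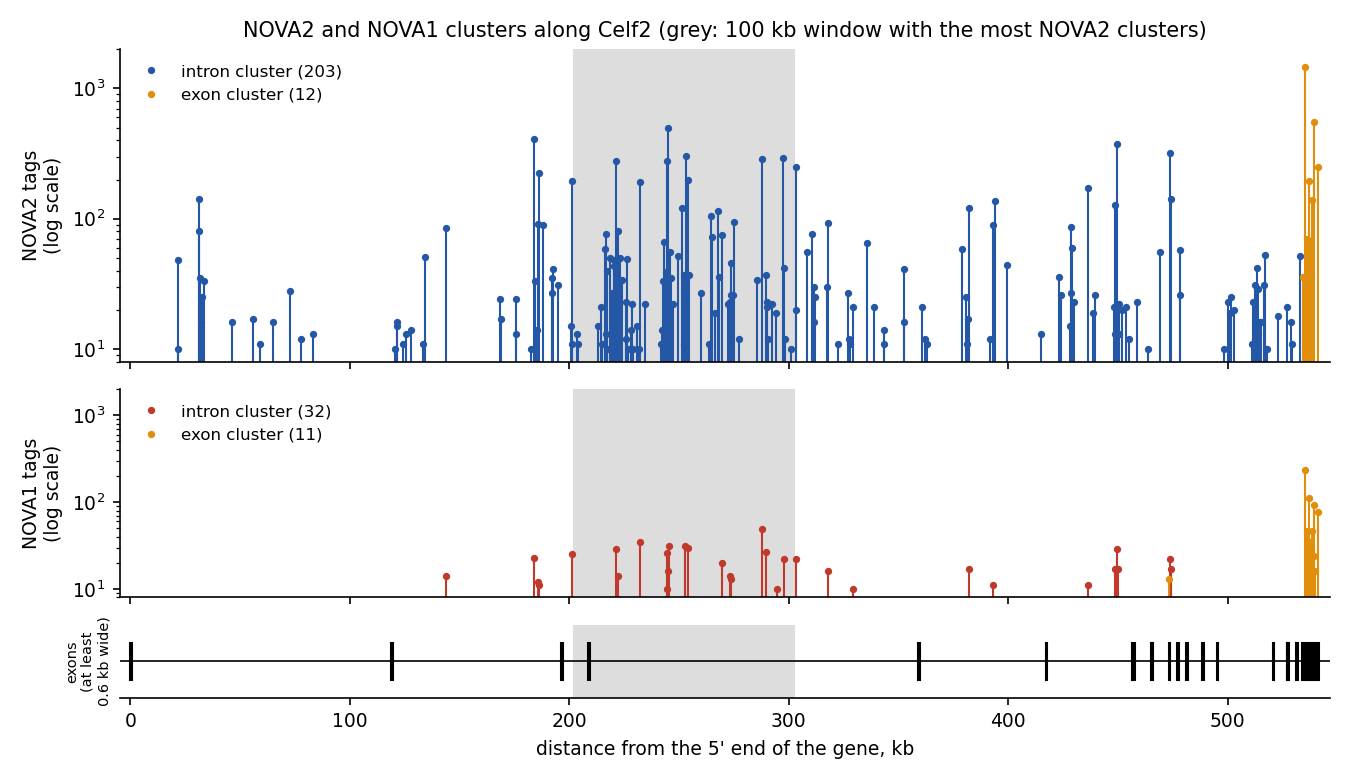
Clusters along Celf2 by distance from the 5' end of the gene in kb (horizontal axis), with NOVA2 tags in the upper panel and NOVA1 tags in the middle panel on log scales, intron clusters in blue or red and exon clusters in orange. Black boxes are exons, the short ones widened so that they can be seen, and the grey band is the 100 kb window that held 79 of the 215 NOVA2 and 16 of the 43 NOVA1 clusters.

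In windows of 100 kb on a fixed grid, Celf2 held 31, 31, 32, 79, 27, 15 and 0 NOVA2 clusters from the 3' end to the 5' end, and 10, 7, 5, 16, 5, 0 and 0 NOVA1 clusters. The gene fills the outer windows only in part. The window chr2:6700001-6800000 had the most clusters of both proteins. Its 79 NOVA2 clusters, all in introns, carried 4707 tags, and its 16 NOVA1 clusters 377 tags. None of the 8686 windows with a NOVA2 cluster in the genome had more of them, the next held 50, and 4 had more tags. This is the run on which the family was selected.

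Inside the window the clusters were spread from end to end. In its parts of 20 kb there were 12, 14, 16, 15 and 22 NOVA2 clusters, with 808, 682, 1811, 489 and 917 tags, and 4, 3, 6, 1 and 2 NOVA1 clusters. Of the 79 NOVA2 clusters 11 had 100 or more tags. The 5 with the most tags were chr2:6757049-6757477 (497), chr2:6749064-6749553 (303), chr2:6704568-6704940 (290), chr2:6714294-6714492 (286) and chr2:6757506-6758020 (277), whose sequences are given above. The first and the last of them are neighbours 28 nt apart. A cluster of 277 tags at chr2:6780707-6781025 shared the fifth rank. All 6 overlapped NOVA1 clusters, with 22 to 49 NOVA1 tags over each.

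Clusters in this window were closer together than in the rest of the gene taken as a whole. This follows in part from the choice of the window by its number of clusters, so the gaps are a description. The median gap between neighbouring NOVA2 clusters was 489 nt (quartiles 162 and 1290, 78 gaps), and 69.2% of gaps were at most 1 kb. In the rest of Celf2 the median was 911 nt (238 and 4138, 134 gaps), with 52.2% at most 1 kb. The quartiles of the window and of the rest of the gene overlap, and the upper ones differ more than the lower ones. The window was not the one with the shortest gaps. The window at the 3' end of the gene, which holds the 3' UTR, had a median gap of 305 nt over 30 gaps, with 73.3% at most 1 kb.

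**Figure D3:**
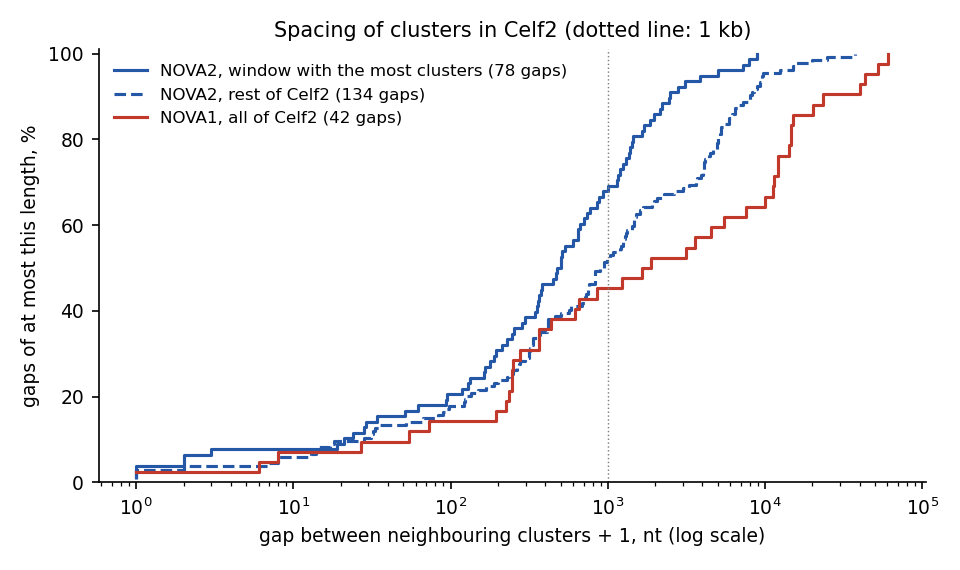
Share of gaps (vertical axis, percent) that are at most a given length (horizontal axis, gap + 1 nt, log scale) between neighbouring clusters in Celf2. The NOVA2 curve of the window with the most clusters (solid blue, 78 gaps) lies left of that for the rest of the gene (dashed, 134 gaps) over most of its length, and NOVA1 gaps (red, 42 gaps) are longer, with a median of 1762 nt.

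Over all of Celf2 the median NOVA2 gap was 726 nt, and for NOVA1 it was 1762 nt. Short NOVA2 gaps go with the many clusters on which Celf2 was selected. Of 414 other genes of at least 200 kb with at least 10 NOVA2 clusters, 6 had a smaller median gap than Celf2, and the median over those genes was 5362 nt. In Celf4 the 20 NOVA2 clusters had a median gap of 9600 nt, within the range of those genes and above their median. In Celf1 the 7 clusters had a median gap of 476 nt, because 4 of them stood together in the 3' UTR and 2 in 1 intron. NOVA1 clusters of Celf2 were not closest in the NOVA2 window. Their median gap was 3139 nt there (15 gaps) and 656 nt outside it (25 gaps), where 10 of the 27 clusters stood together in the 3' UTR.

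Tag counts in Celf2 also ran higher than in the list as a whole. The median NOVA2 cluster of Celf2 had 25 tags (quartiles 14 and 52), that of the whole list 18 (13 and 34). Clusters with 100 or more tags made up 13.0% in Celf2 (28 of 215) and 5.75% in the whole list. The window and the rest of the gene were close in this, with medians of 27 and 23 tags and 13.9% and 12.5% at 100 or more. Celf2 clusters were also wider, with a median of 132 nt beside 114 nt. At the list minimum, 16 NOVA2 and 4 NOVA1 clusters of the family had 10 tags and 19 and 4 had 11. Clusters below 10 tags are not analysed here.

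The cluster with the most tags in the family lay in the 3' UTR of Celf2. It was chr2:6466486-6467204 with 1468 NOVA2 tags, and the NOVA1 cluster over it, chr2:6466371-6467269, had 233 tags, also the most for NOVA1. The 12 NOVA2 clusters of this 3' UTR had 248, 553, 139, 36, 11, 64, 15, 196, 16, 70, 1468 and 36 tags from the distal end, so the highest had more than 100 times the tags of the lowest. The 10 NOVA1 clusters had 76, 16, 92, 24, 47, 30, 35, 111, 46 and 233 tags. Of the 12 NOVA2 clusters 9 overlapped NOVA1, and of the 10 NOVA1 clusters 9 overlapped NOVA2. A 3' UTR is part of the mature mRNA, while most introns are not, so tags there and in introns are not from the same pool of RNA.

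In Celf1 the 3' UTR held NOVA2 clusters of 31, 50, 18 and 10 tags, and the first of them overlapped the only NOVA1 cluster of the gene, chr2:90856211-90856367 with 17 tags. Its intron clusters had 33, 68 and 11 tags, the highest at chr2:90831493-90831610, and none overlapped NOVA1. Celf1 clusters were few, and the tags of its 3' UTR and intron clusters overlapped in range. Their median of 31 NOVA2 tags was not below that of Celf2. Both Celf6 clusters, chr9:59443690-59443799 and chr9:59447732-59447834, stood in the same intron about 4 kb apart.

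In Celf4 the NOVA2 clusters ranged from 10 to 94 tags with a median of 34, and the NOVA1 clusters from 10 to 43 with a median of 12. The highest of both lists was in the 3' UTR, at chr18:25636364-25636598 with 94 NOVA2 tags and at chr18:25636319-25636598 with 43 NOVA1 tags. The highest intron cluster had 93 NOVA2 tags and 18 NOVA1 tags. No Celf4 cluster reached 100 tags, unlike 28 of those in Celf2. Of the 18 intron clusters 10 lay in the 142 kb intron at chr18:25696257-25837913, and 4 lay in the first intron.

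Overlap between the lists was lopsided. Of the 51 NOVA1 clusters of the family 49 overlapped a NOVA2 cluster, 96.1% (86.8 to 98.9), beside 80.1% of all NOVA1 clusters. The classes enter this comparison, because NOVA1 intron clusters of all genes overlapped NOVA2 at 95.5% and exon clusters at 67.3%. In the family 36 of 37 intron clusters did, 97.3% (86.2 to 99.5), and 13 of 14 exon clusters, 92.9% (68.5 to 98.7). The interval for introns holds the share of all genes, and that for exons begins just above it. However, 13 of these 14 exon clusters lay in 3' UTRs. NOVA1 clusters in 3' UTRs of all genes overlapped NOVA2 at 73.9%, which is inside the interval for exons. Of the 244 NOVA2 clusters 46 overlapped a NOVA1 cluster, 18.9% (14.4 to 24.2), beside 22.1% of all NOVA2 clusters, a background that lies inside the interval. Celf4 had 7 of 7 NOVA1 clusters with NOVA2, Celf1 had 1 of 1 and Celf2 had 41 of 43. The NOVA2 shares of the dense window and the rest of Celf2 differed by less than their intervals, at 17.7% (10.9 to 27.6) and 17.6% (12.2 to 24.9).

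The NOVA1 clusters without NOVA2 were chr2:6462340-6462643 in the 3' UTR of Celf2 with 16 tags and chr2:6707804-6707898 in the long intron with 10 tags. Both were low, and the second is the only NOVA1 cluster of the family without a YCAY. The highest NOVA2 clusters without NOVA1 were chr2:6970901-6971029 with 142 tags, chr2:6608027-6608300 with 136 and chr2:6750884-6751043 with 121, all in introns of Celf2. The first is the highest cluster of the 119 kb first intron, which holds no NOVA1 cluster at all.

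Whether a NOVA2 intron cluster of Celf2 had a NOVA1 cluster over it rose with its tag count. With 10 to 19 NOVA2 tags 0 of 77 did, 0% (0 to 4.75), which allows a share of up to 3.90% when a count of 0 is taken as under 3. With 20 to 49 tags it was 5 of 75, 6.67% (2.88 to 14.7), with 50 to 99 tags 6 of 28, 21.4% (10.2 to 39.5), and with 100 or more 18 of 23, 78.3% (58.1 to 90.3). Among all intron clusters the shares were 2.25%, 12.8%, 47.4% and 84.8%. At 50 to 99 tags the interval of Celf2 lies below the share of all introns, and at the other 3 levels it holds it.

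At clusters that overlapped one to one, the tags of both lists could be compared, and NOVA2 had more tags at all 37 such pairs of the family. The study reports more unique NOVA2 than NOVA1 tags in all, and the counts were not scaled to depth. The sign and size of these ratios thus do not tell binding from depth. The midpoints of the clusters of a pair were a median of 18 nt apart and at most 198 nt, and 29 of 37 were within 50 nt. In the 28 intron pairs the median log2 of NOVA1 over NOVA2 tags was -2.71 (interval -3.03 to -2.46), or 6.55 NOVA2 tags for each NOVA1 tag. In 3452 intron pairs of all genes it was -2.04 (-2.08 to -2.0), or 4.10. In the 9 exon pairs, all in 3' UTRs, it was -1.13 (-1.71 to -0.61), and in 2532 exon pairs of all genes -0.38 (-0.42 to -0.33). The intervals of intron and exon pairs of the family did not overlap in this setting, and both medians were lower than those of all genes. With every overlapping pair counted the intervals met, at -3.29 to -2.54 for introns and -2.59 to -0.61 for exons. With both lists at 20 or more tags they met too, at -3.72 to -2.55 and -2.66 to -0.26. A pair enters only where both lists reach 10 tags, so the minimum also sets which pairs are seen.

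Most intron pairs of the family were in Celf2. Its 23 intron pairs had a median of -2.90 (-3.26 to -2.54), while the 5 of Celf4 had -1.93 with a range of -2.70 to -1.06. The ratio falls with NOVA2 tags in all genes, and Celf2 pairs have many, so pairs were also compared at like NOVA2 tags. With under 100 NOVA2 tags the median was -2.51 (-2.92 to -1.0) in 9 Celf2 pairs and -1.68 in 2394 pairs of all genes. With 100 or more it was -3.15 (-3.97 to -2.72) in 14 Celf2 pairs and -2.83 in 1058 pairs. At like tags the medians of all genes lay inside the intervals of Celf2. With so few pairs, each needing a NOVA1 cluster, the ratios cannot show whether the gene differs from others. The share of intron clusters with NOVA1 over them, given above, was lower in Celf2 at 50 to 99 NOVA2 tags.

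**Figure D4:**
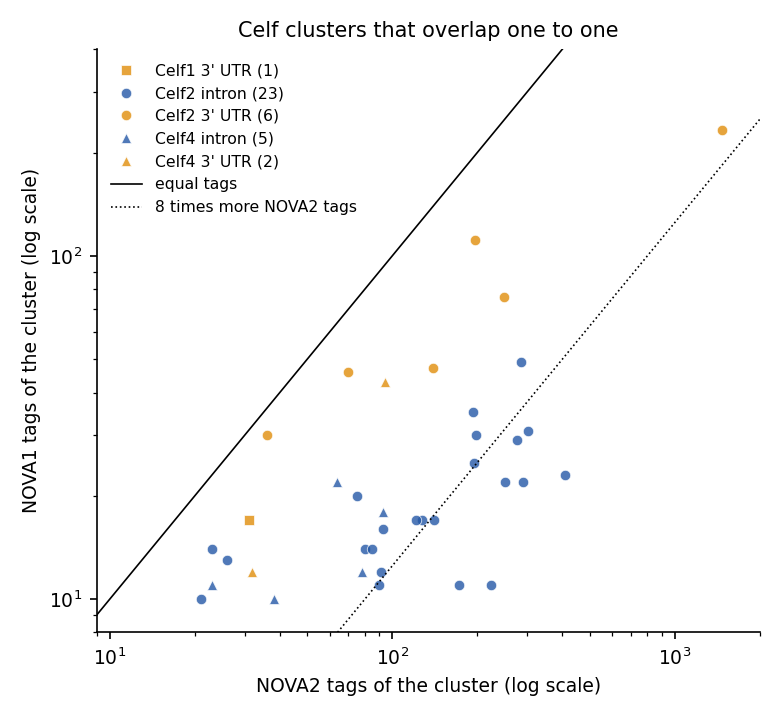
NOVA1 tags (vertical axis) against NOVA2 tags (horizontal axis), both on log scales, for the 37 pairs of Celf clusters that overlap one to one, with introns in blue, 3' UTRs in orange and the shape giving the gene. All points lie under the line of equal tags, the 9 pairs in 3' UTRs mostly closer to it than the 28 in introns, and the Celf2 3' UTR pair with 1468 NOVA2 tags lies just above the dotted line of 8 times more NOVA2 tags.

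Single pairs show the range. At chr2:6815870-6816152 in a Celf2 intron there were 224 NOVA2 and 11 NOVA1 tags, a log2 of -4.35, the lowest of the family. At chr2:6464155-6464352 in the 3' UTR there were 36 and 30, a log2 of -0.26, the highest. The largest 3' UTR pair, with 1468 and 233 tags, was at -2.66 and so within the range of the introns. Over the 28 intron pairs the tags of both lists had a rank correlation of 0.67, beside 0.55 over 3452 pairs of all genes. These points share the abundance of the transcripts, and the values are descriptions.

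YCAY was denser in the clusters than beside them, and in the family as a whole, which is mostly Celf2, less dense than in the whole lists. NOVA2 clusters of the family held 32.8 YCAY per 1000 positions, 1.77 times the 18.5 of flanks 200 to 500 nt away, while the whole list held 42.4, or 2.29 times its flanks. Within introns the values were 34.1 in the family and 44.9 in the whole list. NOVA1 clusters of the family held 33.0 per 1000, or 1.82 times their flanks, and those of the whole list 36.8, or 2.02 times. At like class the difference for NOVA1 was larger in introns, with 41.2 in the family and 53.4 in the whole list. In exons these were 23.6 and 27.2. Width enters these densities, because the motif is densest at the midpoint and family clusters were wider. Their median width was 128 nt for NOVA2 and 150 nt for NOVA1, beside 114 and 129 nt in the whole lists. The median number of YCAY per cluster was 4 in the family and 5 in the whole list for NOVA2, and 5 in both for NOVA1. Without Celf2 the order against the whole list turned for NOVA1, with 40.7 per 1000 and 2.39 times the flanks in 8 clusters. Of these 8 clusters 5 lay in introns, so the turn is not at like class. Of the 244 NOVA2 clusters 243 held at least 1 YCAY, 99.6%, beside 99.3% of the whole list, and of the 51 NOVA1 clusters 50 did, 98.0%, beside 98.1%. The NOVA2 exception was chr2:6465522-6465655, a cluster of 16 tags in the 3' UTR of Celf2. The NOVA1 exception was chr2:6707804-6707898, named above.

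The window with the most clusters was not rich in the motif. Over all its sequence it had 16.0 YCAY per 1000 positions, the lowest of the 5 windows that lie wholly in the gene, whose others had 16.9 to 18.1. Outside clusters it had 14.2, beside 15.9 to 17.7 in those windows. Its NOVA2 clusters held 28.4 per 1000, or 1.63 times their flanks, and those of the rest of Celf2 34.7, or 1.82 times. Over these 5 windows the order was inverse, with fewer YCAY per nucleotide outside clusters where there were more NOVA2 clusters. Leaving out clusters removes motif-rich sequence, and most of it in the window with the most clusters. Over whole spans Celf2 had 17.4 per 1000, and Celf3 and Celf5, which held no cluster, had 19 and 18.4.

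Of the 4 forms of the motif, TCAT was the most frequent in NOVA2 clusters of the family, at 12.6 per 1000 and 2.09 times its flanks. TCAC stood at 2.08 times, CCAT at 1.67 times and CCAC at 1.10 times. In the whole list TCAT was at 18.6 per 1000 and 3.11 times its flanks, TCAC at 2.13 times, CCAT at 2.15 times and CCAC at 1.31 times. The family and the list thus differed most in TCAT and hardly in TCAC. Of the words bound by CELF proteins themselves, TGTT stood at 8.97 per 1000 in NOVA2 clusters of the family and 9.79 in the whole list, and GTGTGT at 1.02 and 1.49, counted on the strand of the gene. Over flanks TGTT stood at 1.13 times in the family and 1.20 in the whole list, and GTGTGT, with 38 matches in the family, at 1.06 and 0.782, the opposite order to its density.

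**Figure D5:**
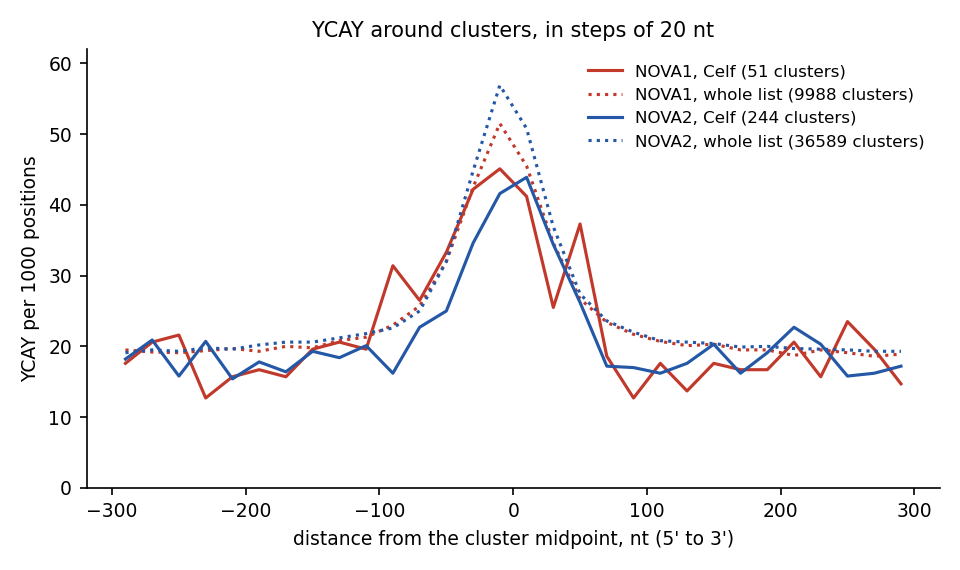
YCAY per 1000 positions (vertical axis) by distance from the cluster midpoint in steps of 20 nt (horizontal axis), for the Celf clusters (solid) and whole lists (dotted) of NOVA1 (red) and NOVA2 (blue). All 4 curves peak within 20 nt of the midpoint, with Celf NOVA2 at 43.9 and the whole NOVA2 list at 56.9, and fall back by about 100 nt.

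The motif was centred on the clusters. In NOVA2 clusters of the family it peaked at 43.9 per 1000 in the step around 10 nt past the midpoint, and in NOVA1 clusters at 45.1 in the step around 10 nt before it, while the whole lists peaked at 56.9 and 51.5 in the step around -10 nt. In Celf2 the number of YCAY in a NOVA2 cluster had a rank correlation of 0.53 with its tags over 215 clusters, and cluster width one of 0.64. The density of YCAY had one of -0.10. Wider clusters hold more of any word, and these values describe the clusters of 1 gene.

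Some clusters had near copies elsewhere in the genome, where short tags could have been placed wrongly. Counting matches over 50% or more of the cluster with 90% or more identical bases, these were 2 of 51 NOVA1 and 9 of 244 NOVA2 clusters, all in Celf2. The NOVA2 cluster chr2:6649635-6649747 had 5043 such matches, and the NOVA1 cluster chr2:6714331-6714441 in the CCA repeat had 108. The longer NOVA2 cluster of 286 tags over the repeat had none by this rule, and among the 5 printed clusters of the window none did. That NOVA2 cluster contains the whole NOVA1 cluster with 108 matches. Because the rule asks for 50% of a cluster, a longer cluster can have none while tags in part of it could be placed wrongly.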

How the data were processed

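NOVA1 and NOVA2 HITS-CLIP of mouse cortex at embryonic day 18.5 had 3 libraries per protein. Tags were aligned by the authors with Novoalign to mm9 (versions not given in the sources used here), PCR duplicates were removed, and clusters with tags in at least 2 of the 3 libraries were kept. The deposited lists give for each cluster its position, strand and 1 count of tags, pooled over libraries and not scaled. The study defines its minimum of 10 tags as peak height, so the count is taken to be the height of the cluster's peak, and sums of tags are sums of that value. The members and gene lists were chosen with earlier results of these data known, and no test was made because the lists used here hold no value per library.

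Clusters were set against GENCODE vM1 on NCBIM37, with 0 cluster ends past a chromosome end. A cluster took the class covering most of its nucleotides on its strand, coding sequence taking precedence over UTRs, these over noncoding exons, and exons over introns. Exons of retained-intron transcripts were not counted. Clusters named were the highest of each member and list, the 5 highest of the Celf2 window, the 3 highest without overlap, and genes next to or most like Celf2. The Celf2 cluster beside an exon, the range of pair ratios and the 4 forms of YCAY were chosen after their values were seen. Overlaps, gaps and motif counts used pysam 0.24.0 with samtools 1.23.1, SciPy 1.17.1, pandas 2.3.3 and NumPy 2.4.6 under Python 3.11.15, further copies BLAST+ 2.17.0 and figures matplotlib 3.10.9, and the functions were tested on simulated data. Alternatives were other overlap rules, tag minimums, merged clusters, class rules and flanks. RNA-seq of the study was not analysed here.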

Additional observations from a re-analysis of the deposited data

How the results depend on the processing

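Of 50 alternative values of 13 results, 38 stayed within the counting interval of the reported value, or within 1.5 times it for counts. The other 12 moved. A direction exists only for the log2 ratios and the YCAY folds, and none of their alternative values changed it. The shares, counts and median gap have no direction that could change, so they were judged by size alone. With both lists at 20 or more tags there were 26 clusters of NOVA1 and 153 of NOVA2 in the family, 100% of the former overlapped the latter, and the intron log2 ratio was -3.29. A NOVA2 list at 25 or more tags raised the share of NOVA2 clusters with NOVA1 to 33.1%, and a NOVA2 list as long as the NOVA1 list to 38.6%, because low NOVA2 clusters were removed. In the latter 86.3% of NOVA1 clusters overlapped NOVA2. Without Celf2 the intron share of NOVA2 clusters was 79.3%, the intron log2 ratio -1.93 from 5 pairs, and the YCAY fold 2.39 for NOVA1 and 1.96 for NOVA2. Against introns of the same genes outside clusters the NOVA2 fold was 1.94. The cause was not tested. The window of 100 kb held 79 NOVA2 clusters on the fixed grid, 84 when slid by 1 kb and 66 with near clusters merged. No paired analysis was possible because tags were pooled over libraries, and for the same reason no library could be left out. The lists hold nothing below 10 tags, so a missing cluster does not show a missing site.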
